A study of Mus musculus with 34 samples.

Results

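Hedgehog signalling was described through 9 of its core genes in the kidneys of 34 mice. The 9 are the ligands *Ihh* and *Dhh*, the receptor *Ptch1*, the signal transducer *Smo*, the ligand-binding inhibitor *Hhip*, the transcription factors *Gli1*, *Gli2* and *Gli3* and the Gli inhibitor *Sufu*. They were picked by name as core genes of the pathway out of 23509 genes in the count tables, and all 9 passed the low-count filter that left 15644 genes for testing. Kidneys were harvested at P28 from C57BL6 mice in 3 groups. UNT mice (n = 12) were non-transgenic and untreated, and *Pkd2*-KO mice received either PBS (n = 11) or RGLS4326 at 20 mg per kg (n = 11), both given SC at P10, P11, P12 and P19. In this polycystic kidney disease model (Pkhd1/cre;Pkd2 F/F) the *Pkhd1* promoter drives Cre in kidney tubules, mainly the collecting duct, so other kidney cells keep *Pkd2*. UNT mice differed from PBS mice in genotype and in having had no injection, which cannot be told apart. RGLS4326 is an oligonucleotide inhibitor of the microRNA miR-17.

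Hedgehog ligands bind Ptch1, which otherwise keeps Smo inactive. Active Smo gathers in the primary cilium and turns the Gli proteins from repressors into activators, and *Gli1*, *Ptch1* and *Hhip* are themselves among the genes that Gli activators switch on. In the kidney, ligands are made by the epithelium, *Ihh* by tubules and *Shh* by the collecting duct and ureter, while *Gli1* marks mainly perivascular and interstitial stromal cells. The cilium also holds the polycystins, the proteins lost in polycystic kidney disease.

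Whole kidney RNA was measured, so fewer cells of a type and less RNA per cell cannot be told apart in any value here. Libraries held 17603122 to 54981992 reads counted in genes. *Pkd2* itself was 220 to 338 CPM (CPM, read counts scaled to library size by TMM, with a median of 274) in UNT, 98.0 to 215 (median 165) in PBS and 170 to 237 (median 210) in RGLS4326 kidneys. PBS mice had less of it than any UNT mouse (log2 fold change -0.78, SE 0.092, adjusted p = 1.4e-09) and 0.39 higher after RGLS4326 than in PBS (SE 0.093, adjusted p = 0.00439). Adjusted p-values are from edgeR's quasi-likelihood test over all 15644 genes, with the threshold at 0.05. The file names restart the library numbers 3 times, and each of the 3 series, called runs 1 to 3 here, held 3 or 4 mice of every group. PBS 2 and PBS 11 carried adrenal cortex transcripts (summed level of 6 markers 717 and 1198 CPM, against 1.97 to 39.8 in all other libraries), so the calls of Hedgehog and other pathway genes that were lost without those kidneys are named below. PBS 9 had the lowest *Pkd2* of the 34 mice and the lowest PBS values of *Ptch1*, *Gli2*, *Gli3*, *Hhip* and *Sufu*.

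The sequences of the miR-17 family are shown because RGLS4326 was built against their shared seed (bases 2 to 8, in capitals), and because a match to it marks genes that could respond to the drug directly. The mature forms are from RefSeq (GRCm38), 5′ to 3′.
mmu-miR-17-5p: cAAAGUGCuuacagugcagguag
mmu-miR-20a-5p: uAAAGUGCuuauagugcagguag
mmu-miR-20b-5p: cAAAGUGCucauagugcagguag
mmu-miR-93-5p: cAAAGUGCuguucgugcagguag
mmu-miR-106a-5p: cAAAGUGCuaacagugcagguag
mmu-miR-106b-5p: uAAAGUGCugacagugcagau
None of the 9 Hedgehog genes (0 of 9) held a match to this seed in its longest annotated 3′UTR on the sense strand. A match was either GCACTTT, the complement of bases 2 to 8, or CACTTTA, the complement of bases 2 to 7 followed by an A. Their 3′UTRs ran from 165 bases in *Gli1* to 9012 bases in *Ptch1*, and 21.9% of 14200 tested genes with a 3′UTR (median 1316 bases) held at least 1 match. Among 44 other genes of the pathway with a 3′UTR, 13 held a match.

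In GRCm38 the ligand genes lie at *Ihh* (chr1:74945315-74951672, minus strand) and *Dhh* (chr15:98891152-98898540, minus strand), and the membrane genes at *Ptch1* (chr13:63508328-63573598, minus strand), *Smo* (chr6:29735503-29761365, plus strand) and *Hhip* (chr8:79965851-80058006, minus strand). The Gli genes are *Gli1* (chr10:127329882-127341974, minus strand), *Gli2* (chr1:118834132-119053619, minus strand) and *Gli3* (chr13:15463235-15730026, plus strand), and their inhibitor is *Sufu* (chr19:46396896-46488804, plus strand).

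The kidney's Hedgehog genes differed widely in level. Per kb of annotated exon, mean UNT levels were 12.1 CPM for *Smo*, 9.26 for *Sufu*, 3.60 for *Ihh*, 1.76 for *Ptch1* and 0.56 for *Gli1*, followed by *Hhip* at 0.371, *Gli3* at 0.294, *Dhh* at 0.28 and *Gli2* at 0.0982. *Gli3* and *Dhh* both lay within 1 SD of the *Hhip* mean (SD 0.111, n = 12), and the order of these neighbours was not tested. In PBS kidneys *Ihh* (6.89 ± 1.41 CPM per kb, SD, n = 11) and *Sufu* (6.86 ± 0.64) did not differ beyond their spread, and *Gli3* (1.04 ± 0.197) lay within the spread of *Gli1* (1.25 ± 0.245). *Gli2* remained the lowest of the 9 in PBS (0.303 ± 0.0591 CPM per kb) and was counted with only 5 to 107 reads per library. *Dhh* had 13 to 88 reads. Counts of *Dhh*, *Gli1*, *Gli3* and *Hhip* are less certain than the rest because their exons overlap another annotated gene. For *Dhh* the overlap covered 1107 of 4399 bases with the antisense gene *Gm49442* and 546 with *Rhebl1* on the same strand. For *Gli1* it covered 265 of 4995 bases with *Gm47200* and 62 with *Arhgap9*, and for *Gli3* and *Hhip* 188 and 175 bases. The strand setting of the counting is not given in the sources used here.

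The first comparison, PBS against UNT kidneys, asked how the pathway stood in cystic disease. Ligand, transducer and Gli transcripts were all more abundant in cystic kidneys, *Sufu* was less abundant, and the receptor *Ptch1* and the inhibitor *Hhip* were not called. In counts, 6 of the 9 rose, 1 fell and 2 did not pass. Of all tested genes 82.1% were called in this comparison, 43.1% higher and 39.0% lower, so a call alone says little here. The members' median log2 fold change was 0.70, against 0.04 over all tested genes. *Smo*, *Gli1*, *Gli2* and *Gli3* did not overlap between the groups (4 of 9), which was true of 22.7% of all tested genes in the higher and 19.8% in the lower direction.

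**Figure D1:**
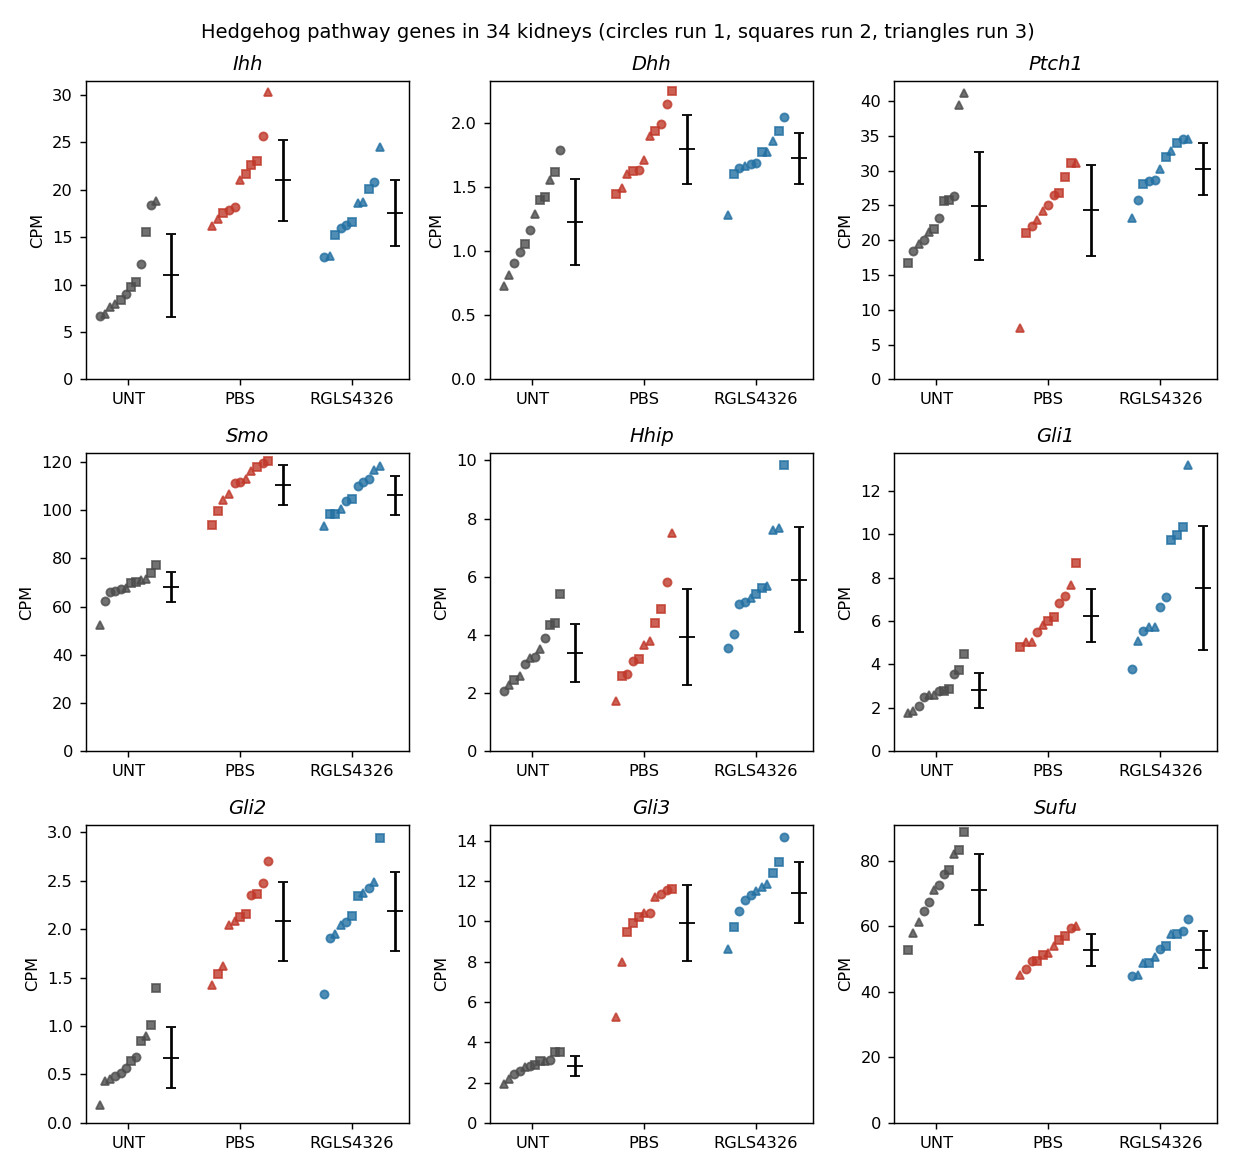
CPM of the 9 Hedgehog genes in each mouse, by group (UNT n = 12, PBS n = 11, RGLS4326 n = 11), each y axis starting at 0; circles, squares and triangles are runs 1, 2 and 3, and the bar beside each group is the mean ± SD. PBS and UNT mice separate fully for *Smo*, *Gli1*, *Gli2* and *Gli3*, PBS 9 is the lowest PBS mouse in *Ptch1*, *Gli3* and *Hhip*, and 4 RGLS4326 mice lie above all PBS mice in *Gli1*.

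Both ligands rose. *Ihh*, the ligand best known from cartilage and gut and made in the kidney by tubule cells, was 6.68 to 18.8 CPM (median 9.39) in UNT and 16.2 to 30.3 CPM (median 21.0) in PBS kidneys. All 11 PBS mice lay above the UNT mean and 6 lay above the highest UNT mouse, so the groups overlapped at their edges. The log2 fold change was 0.93 (SE 0.157, adjusted p = 1.63e-06), and 0.79, 0.91 and 1.02 within runs 1, 2 and 3. *Dhh*, the ligand of testis and peripheral nerve, was 0.729 to 1.79 CPM (median 1.23) in UNT and 1.45 to 2.25 CPM (median 1.71) in PBS kidneys. It rose by 0.54 (SE 0.122, adjusted p = 0.000138), with 5 of 11 PBS mice above every UNT mouse. Within runs 2 and 3 alone it was not called (0.37, adjusted p = 0.0904, and 0.60, adjusted p = 0.0567). *Mbp*, the most abundant of the 6 Schwann cell markers, averaged 19.7 CPM in UNT and 104 in PBS kidneys, and 2 of the 5 tested markers of that list rose while 2 fell. Their part in the *Dhh* result was not tested.

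At the membrane, *Smo* and *Ptch1* parted. *Smo*, the seven-pass protein that carries the signal inward, was 52.4 to 77.2 CPM (median 68.7) in UNT and 94.0 to 120 CPM (median 112) in PBS kidneys. Every PBS mouse was above every UNT mouse. The rise was 0.70 (SE 0.0534, adjusted p = 2.18e-14), with the smallest error of the 9, and within runs it was 0.76, 0.54 and 0.74. *Ptch1*, the ligand receptor, was 16.7 to 41.2 CPM (median 22.3) in UNT and 7.42 to 31.1 CPM (median 25.1) in PBS kidneys. The UNT range was stretched by UNT 11 and UNT 12 at 39.4 and 41.2 CPM and the PBS range by PBS 9 at 7.42 CPM, with the remaining mice intermixed. Its difference was -0.03 (95% CI -0.34 to 0.28, adjusted p = 0.852), and the sign turned to 0.04, 0.05 and 0.05 when PBS 9, UNT 11 or UNT 12 was left out. Within runs it was 0.12, 0.24 and -0.50. *Hhip*, a membrane protein that binds and sequesters ligand, was 2.06 to 5.41 CPM (median 3.22) in UNT and 1.73 to 7.52 CPM (median 3.66) in PBS kidneys, overlapping along most of the range. Its difference was 0.22 (95% CI -0.17 to 0.62, adjusted p = 0.287), and -0.18 within run 2.

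The 3 Gli genes showed the widest differences. *Gli1*, the activator whose own transcription reports pathway output, was 1.75 to 4.49 CPM (median 2.68) in UNT and 4.82 to 8.68 CPM (median 5.99) in PBS kidneys. No mouse overlapped, and the log2 fold change was 1.15 (SE 0.17, adjusted p = 1.51e-07). *Gli2*, the main activator of the primary response, was 0.19 to 1.39 CPM (median 0.601) in UNT and 1.42 to 2.70 CPM (median 2.12) in PBS kidneys. The highest UNT mouse fell just short of the lowest PBS mouse, and the log2 fold change was 1.61 (SE 0.183, adjusted p = 5.79e-10). *Gli3*, which acts chiefly as the repressor when ligand is absent, was 1.93 to 3.51 CPM (median 2.86) in UNT and 5.24 to 11.6 CPM (median 10.4) in PBS kidneys. Over all mice it had the largest change of the 9, 1.81 (SE 0.11, adjusted p = 4.26e-17). Within runs 1 and 3 *Gli2* changed more, and the order of the 2 was not tested. The lowest PBS mouse, PBS 9, still exceeded every UNT mouse. Within runs 1, 2 and 3 the log2 fold changes were 1.21, 0.85 and 1.42 for *Gli1*, 2.12, 1.05 and 1.92 for *Gli2* and 1.99, 1.63 and 1.81 for *Gli3*. *Sufu*, which holds Gli proteins in the cytoplasm, was 52.7 to 88.8 CPM (median 71.8) in UNT and 45.2 to 60.0 CPM (median 51.8) in PBS kidneys. Each of the 11 PBS mice was below the UNT mean, and *Sufu* decreased by 0.43 on the log2 scale (SE 0.0736, adjusted p = 2e-06), by 0.47, 0.53 and 0.37 within the runs.

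Markers of the stromal cells that carry *Gli1* moved with these results. Of 10 fibroblast and pericyte markers, 9 rose in PBS kidneys and 1 was not called (median log2 fold change 1.26), with the summed level going from 751 to 1816 CPM in UNT to 3462 to 7167 CPM in PBS kidneys. *Col3a1* averaged 292 CPM in UNT and 1837 in PBS kidneys, and *Col1a2* 267 and 1496. Of 8 myofibroblast and smooth muscle markers, 5 rose and 2 fell. *Acta2* averaged 90.1 CPM in UNT and 403 in PBS, and *Tagln* 68.0 and 402. Proximal tubule markers moved the other way. All 10 proximal tubule markers were lower (median -2.70; summed level 28554 to 41637 CPM in UNT and 1686 to 7015 CPM in PBS), and *Kap* and *Slc34a1* fell from 18328 and 4722 CPM to 1056 and 646 CPM. Of 8 collecting duct markers, 7 rose and 1 fell, *Hsd11b2* going from 225 to 603 CPM and *Aqp2* from 251 to 607 CPM. Thick ascending limb and distal tubule markers fell in 5 of 6 cases (*Umod* 5018 to 2904 CPM, *Slc12a1* 1912 to 443 CPM), podocyte markers in 5 of 6 (*Podxl* 409 to 212 CPM, with *Synpo* rising from 88.3 to 157 CPM) and endothelial markers in 5 of 8 (*Plvap* 203 and 186 CPM, not called, and *Pecam1* rising from 96.4 to 118 CPM). All 6 urothelium markers rose, *Krt20* from 2.34 to 36.5 CPM and *Upk1b* from 13.1 to 29.5 CPM. No gene of these lists was at 0 in any whole group. How much of each Hedgehog change follows cell composition was not tested.

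The second comparison, RGLS4326 against PBS in *Pkd2*-KO mice, asked whether treatment shifted these genes. No control oligonucleotide was among the libraries used, so miR-17 inhibition and other effects of an oligonucleotide cannot be told apart. Of the 9, only *Hhip* passed the test (1 higher, 0 lower, 8 not called), where 33.8% of all tested genes were called, 15.3% higher and 18.5% lower. The members' median log2 fold change was 0.08, against 0.00 over all tested genes. No member separated the groups fully, as 0.0447% of all tested genes did in the higher and 0.0192% in the lower direction. *Hhip* was 1.73 to 7.52 CPM (median 3.66) in PBS and 3.55 to 9.86 CPM (median 5.41) in RGLS4326 kidneys. The groups overlapped, but 10 of 11 treated mice exceeded the PBS mean and 3 exceeded every PBS mouse. The rise was 0.58 (SE 0.197, adjusted p = 0.0237), and 0.22, 0.90 and 0.65 within runs 1, 2 and 3, called only in run 2. It was no longer called without RGLS4326 6, the highest treated mouse (0.48, adjusted p = 0.0609), or without PBS 2 and PBS 11 together (0.53, adjusted p = 0.0696).

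**Figure D2:**
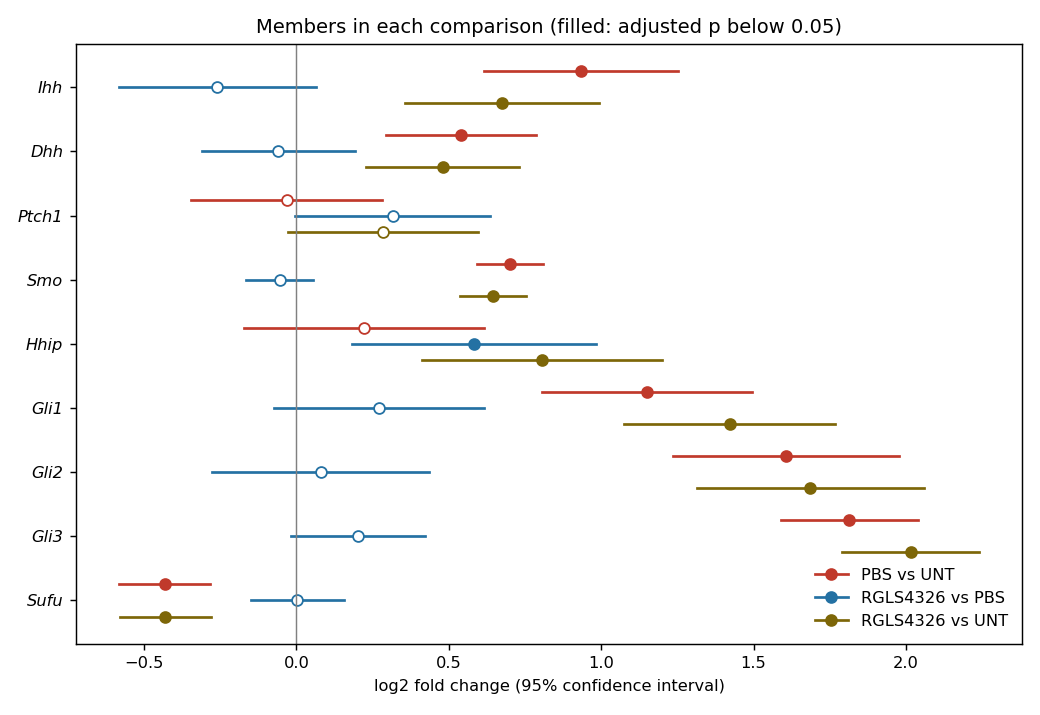
Log2 fold change and 95% confidence interval of each Hedgehog gene in the 3 comparisons (PBS vs UNT red, RGLS4326 vs PBS blue, RGLS4326 vs UNT brown; edgeR), filled where the adjusted p was below 0.05. Only *Hhip* has a filled blue point, at 0.58, and the red and brown points lie on the same side of 0 for every gene except *Ptch1*.

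The remaining members were not called between treated and PBS kidneys, and the intervals give the sizes still compatible with the data. *Ihh* was 12.9 to 24.5 CPM (median 16.6) after RGLS4326. Of the 11 treated mice, 10 were below the PBS mean and 4 below every PBS mouse, for a difference of -0.26 (95% CI -0.58 to 0.06, adjusted p = 0.197). The sign was the same in each run, at -0.30, -0.28 and -0.17. *Dhh* (1.29 to 2.05 CPM, median 1.69) differed by -0.06 (95% CI -0.31 to 0.19). *Smo* (93.7 to 118 CPM, median 105) differed by -0.06 (95% CI -0.17 to 0.05) and *Sufu* (44.7 to 62.1 CPM, median 53.0) by 0.00 (95% CI -0.15 to 0.15), the tightest bounds of the 9. *Ptch1* was 23.2 to 34.6 CPM (median 30.3), with 5 treated mice above every PBS mouse, and its difference was 0.32 (95% CI 0.00 to 0.64, adjusted p = 0.112). *Gli3* (8.62 to 14.2 CPM, median 11.5) differed by 0.20 (95% CI -0.02 to 0.42, adjusted p = 0.138) and *Gli2* (1.33 to 2.94 CPM, median 2.13) by 0.08 (95% CI -0.28 to 0.44).

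*Gli1* had an uneven distribution among treated mice. It was 3.77 to 13.2 CPM (median 6.63) after RGLS4326 against 4.82 to 8.68 CPM in PBS, a difference of 0.27 (95% CI -0.07 to 0.61, adjusted p = 0.205). RGLS4326 5, 6, 7 and 11 had 9.71 to 13.2 CPM, above every PBS mouse, and the other 7 had 3.77 to 7.11 CPM. The same 4 libraries had 11.3 to 12.0% of reads in no gene, while the other 7 had 4.94 to 8.92%, PBS libraries 5.18 to 8.995% and UNT libraries 9.84 to 11.3%. All 3 treated libraries of run 2 were among the 4, and the difference in *Gli1* was -0.16, 0.66 and 0.34 within runs 1, 2 and 3, called in run 2 (adjusted p = 0.0375). In a fit with that share added as a covariate, *Gli1* differed by -0.18 (adjusted p = 0.488) and *Hhip* by 0.38 (adjusted p = 0.321). Only 89 of all tested genes were called in that fit. *Hhip* was 5.41 to 9.86 CPM in the 4 libraries and 3.55 to 7.68 CPM in the other 7, and *Ptch1* 23.2 to 33.9 CPM and 25.8 to 34.6 CPM. What sets the share of reads in no gene was not tested.

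**Figure D3:**
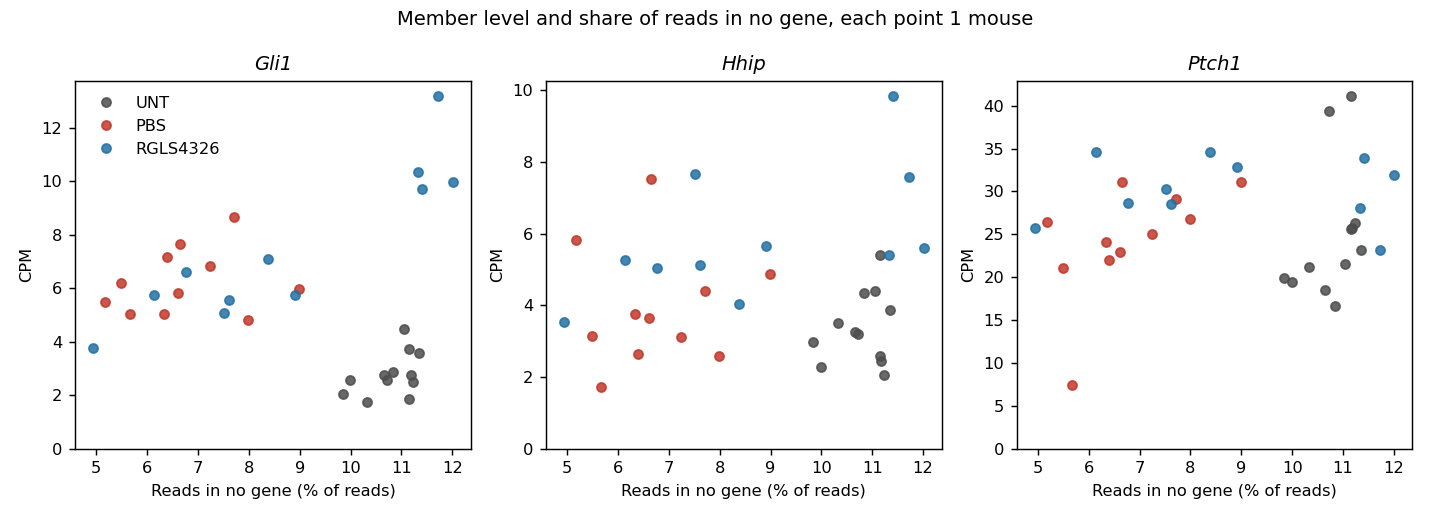
CPM of *Gli1*, *Hhip* and *Ptch1* (y axes from 0) against the share of reads that fell in no gene, each point 1 mouse (UNT grey, PBS red, RGLS4326 blue). In *Gli1* the 4 RGLS4326 libraries above 11% stand at 9.71 to 13.2 CPM, over UNT libraries (9.84 to 11.3%) at 1.75 to 4.49 CPM. *Ptch1* has no such group.

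Marker lists moved less with treatment than with disease. Of 10 fibroblast and pericyte markers 2 were called, both higher. The summed level was 4736 to 6782 CPM after RGLS4326, inside the PBS range. Of 10 proximal tubule markers 6 rose (summed level 1686 to 7015 CPM in PBS and 3814 to 7279 CPM after RGLS4326), with *Slc34a1* going from 646 to 1005 CPM. Thick ascending limb and distal tubule markers rose in 4 of 6 cases and fell in 1 (2523 to 4856 CPM and 3887 to 5723 CPM), *Umod* going from 2904 to 3597 CPM and *Slc12a1* from 443 to 654 CPM. Endothelial markers rose in 5 of 8 cases (602 to 830 CPM and 690 to 910 CPM), *Pecam1* going from 118 to 138 CPM, and podocyte markers in 5 of 6 (371 to 483 CPM and 446 to 533 CPM), *Podxl* going from 212 to 239 CPM. Of 8 myofibroblast and smooth muscle markers 2 rose and 1 fell (925 to 1593 CPM and 996 to 1368 CPM). The 2 that rose, named because they passed, were *Itga8* (0.63) and *Mylk* (0.46), while *Acta2* (403 and 410 CPM) and *Tagln* (402 and 373 CPM) were not called. Of 8 collecting duct markers 5 fell, with *Aqp2* going from 607 to 353 CPM, and of 7 macrophage markers 5 fell (1448 to 4953 CPM and 1065 to 2499 CPM), *Cd74* from 1267 to 805 CPM and *Lyz2* from 670 to 487 CPM. Of 5 tested Schwann cell markers 1 rose and 1 fell. The part of these cells in the *Hhip* result was not tested.

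The third comparison set RGLS4326-treated against UNT kidneys, and it shares its samples with the other 2. Of the 9 members 7 were higher, 1 was lower and 1 was not called, where 77.7% of all tested genes were called, 40.8% higher and 36.9% lower. *Gli3* (2.02), *Gli2* (1.69), *Gli1* (1.42), *Hhip* (0.81, adjusted p = 0.000326), *Ihh* (0.67), *Smo* (0.64) and *Dhh* (0.48) were higher on the log2 scale and *Sufu* decreased by 0.43. In single runs *Dhh* was not called in any (adjusted p = 0.0592, 0.148 and 0.0775 in runs 1, 2 and 3), *Ihh* not in run 1 (adjusted p = 0.12) and *Hhip* not in runs 1 and 2 (adjusted p = 0.0895 and 0.0526). *Gli3* and *Smo* did not overlap between the groups, as was true of 20.7% of all tested genes in the higher and 16.1% in the lower direction. In *Gli1* and *Gli2* a single treated mouse, RGLS4326 4, lay within the UNT range. *Ptch1* differed by 0.28 (95% CI -0.03 to 0.60, adjusted p = 0.0914). It was called when UNT 11 (0.36, adjusted p = 0.0287) or UNT 12 (0.37, adjusted p = 0.0238), its highest UNT mice, or PBS 9 (0.27, adjusted p = 0.0364), through the shared estimate of spread, was left out. It was also called with limma-voom (0.36, adjusted p = 0.039), with the replicate block (0.40, adjusted p = 0.0231), in run 1 alone (0.39, adjusted p = 0.0125) and in run 2 alone (0.46, adjusted p = 0.024).

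Around the 9 members, 48 further pathway genes were listed by role, of which 46 names were in the tables and 45 were tested. In PBS kidneys 28 of the 45 rose, 8 fell and 9 were not called (median 0.23), again with 82.1% of all tested genes called. Without PBS 2 and PBS 11 33 of the 45 were called, and the 3 calls lost, named here because they were lost, were those of *Bmp4* (-0.26 with all mice, -0.19 without the pair, adjusted p = 0.116), *Efcab7* (-0.34 and -0.29, adjusted p = 0.0562) and *Bcl2* (0.19 and 0.18, adjusted p = 0.0893). *Bmp4* was also not called when PBS 2, 3, 4 or 11 or UNT 3 or 6 alone was left out (adjusted p up to 0.0589), and *Bcl2* when any 1 of 17 libraries was (adjusted p up to 0.0961). In RGLS4326 against PBS 6 rose, 6 fell and 33 were not called (median 0.01), where 33.8% of all tested genes were called, and in RGLS4326 against UNT 24 rose, 6 fell and 15 were not called, where 77.7% were. The pathway genes called made up a smaller share than all genes in both.

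**Figure D4:**
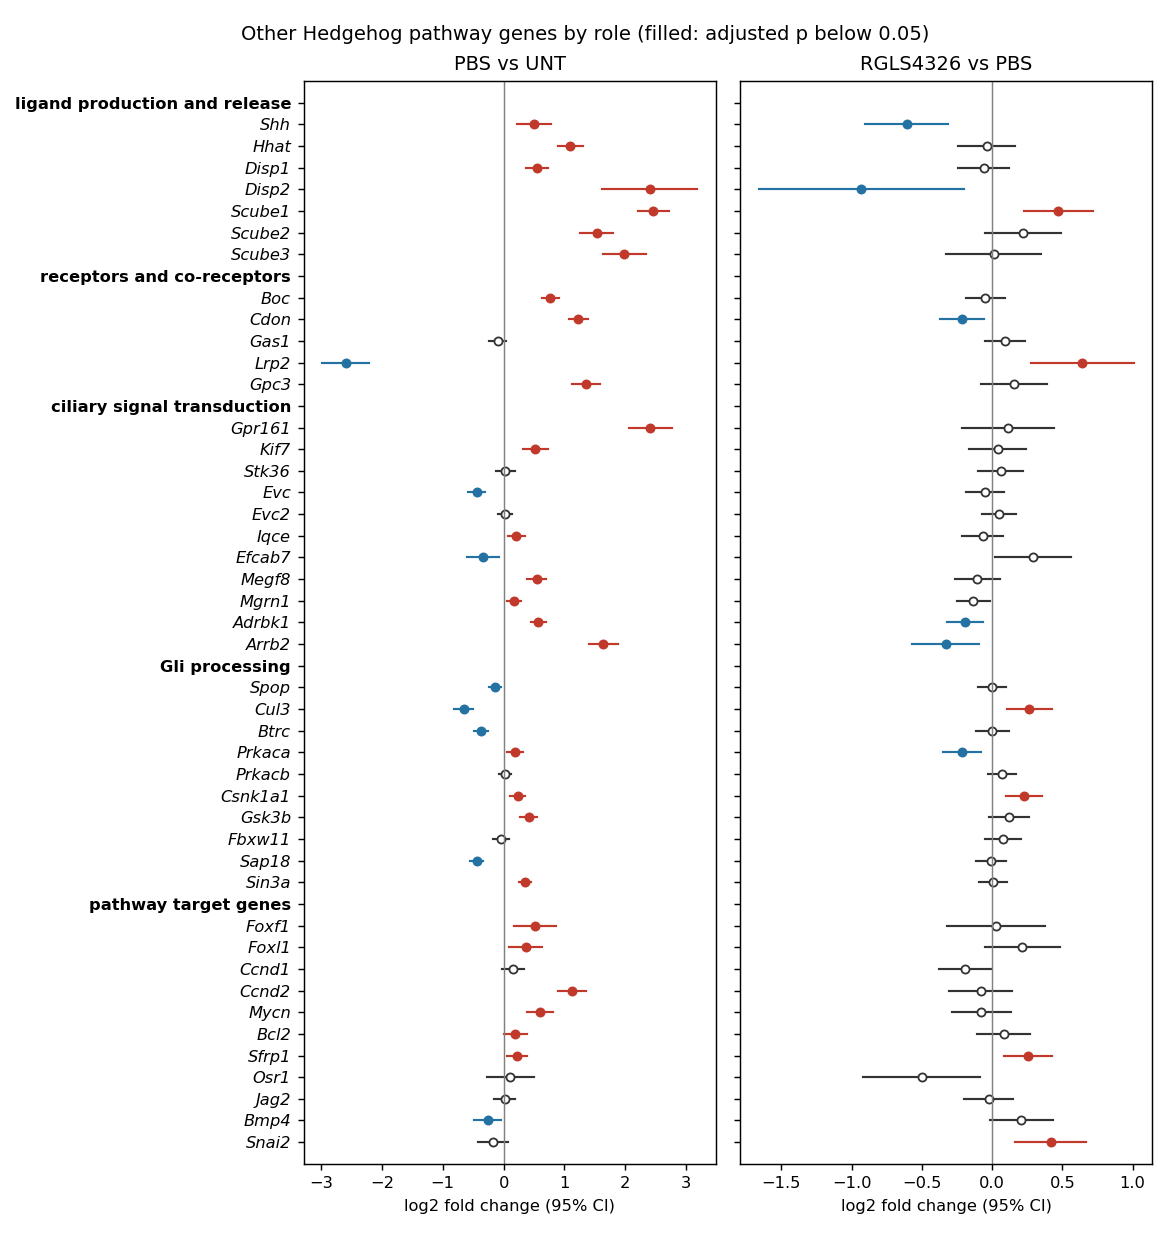
Log2 fold change and 95% confidence interval (edgeR) of 44 of the 45 other tested pathway genes, grouped by role, in PBS vs UNT (left) and RGLS4326 vs PBS (right), with separate x axes; filled points had an adjusted p below 0.05, red higher and blue lower. All 7 ligand production and release genes are red on the left, and *Shh* and *Disp2* are blue on the right.

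Of the genes that make and release ligand, 7 of 7 rose in cystic kidneys, where 43.1% of all tested genes were higher. *Scube1*, a secreted carrier of the Scube family that helps free lipid-modified ligand from cells, averaged 7.83 ± 2.15 CPM (SD, n = 12) in UNT and 43.1 ± 9.01 CPM (n = 11) in PBS, a change of 2.46 (adjusted p = 3.2e-19). *Scube3* and *Scube2* rose by 1.99 and 1.53. RGLS4326 kidneys had still more *Scube1*, 59.7 ± 6.83 CPM, 0.47 above PBS (adjusted p = 0.0062). *Shh*, the ligand of the collecting duct, was 0.852 to 1.69 CPM (median 1.38) in UNT, 1.38 to 2.55 CPM (median 1.85) in PBS and 0.695 to 2.16 CPM (median 1.18) in RGLS4326 kidneys, with overlap throughout. It rose by 0.50 in PBS (adjusted p = 0.0013), decreased by 0.61 with treatment (SE 0.145, adjusted p = 0.00443) and did not pass the test between treated and UNT kidneys (-0.10, adjusted p = 0.51). PBS 2 and PBS 11, with the adrenal transcripts, had the 2 highest *Shh* values (2.55 and 2.35 CPM). Without them the treatment difference was -0.51 (adjusted p = 0.025). Markers of the cells known to make *Shh* fell with it after RGLS4326. Of 8 collecting duct markers 5 fell (summed level 1172 to 2696 CPM in PBS and 619 to 2373 CPM after RGLS4326), and of 6 urothelium markers 5 fell (median -0.64, summed level 103 to 220 CPM and 63.1 to 138 CPM), among them *Upk1b*, from 29.5 to 19.3 CPM, while *Krt20* was not called (36.5 and 36.1 CPM). Their part in the *Shh* result was not tested. *Shh* exons overlap 2 opposite-strand genes over 446 and 361 of 2847 bases. *Disp2*, a relative of the ligand-releasing channel gene *Disp1*, differed by -0.93 with treatment (adjusted p = 0.0435), but PBS 2 and PBS 11 held 3.24 and 2.68 CPM and all other PBS mice at most 0.958 CPM. Without them it was -0.16 (adjusted p = 0.696).

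Among receptors and co-receptors, 4 of 6 rose in PBS kidneys and 1 fell, where 82.1% of all tested genes were called. *Cdon*, a co-receptor that presents ligand to Ptch1, averaged 19.0 ± 2.25 CPM in UNT and 44.6 ± 6.33 CPM in PBS (1.23, adjusted p = 8.2e-17), and *Gpc3*, a glypican that competes for ligand, 62.3 and 159 CPM (1.35). *Boc*, the partner of *Cdon*, was 0.72 higher in treated than in UNT kidneys. *Lrp2*, megalin, decreased by 2.59 in PBS and rose by 0.64 with treatment (adjusted p = 0.0098). It is also one of the 10 proximal tubule markers above. With treatment *Cdon* decreased by 0.22 (adjusted p = 0.031), a call lost when any 1 of 6 libraries was left out (adjusted p up to 0.0701) and without PBS 2 and PBS 11 together (-0.18, adjusted p = 0.0973).

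Of 11 tested genes of ciliary signal transduction, 7 rose and 2 fell in PBS kidneys, a share called close to the 82.1% of all tested genes. *Gpr161*, a ciliary receptor that holds the pathway off in the absence of ligand, had the largest change, from 0.734 ± 0.3 to 3.86 ± 0.89 CPM (2.41, adjusted p = 6.1e-15). *Arrb2* (beta-arrestin 2) rose by 1.63 and *Adrbk1*, the kinase gene also named *Grk2*, by 0.57, and both decreased with treatment, by 0.33 (adjusted p = 0.031) and 0.19 (adjusted p = 0.018). The treatment call was lost for *Arrb2* without PBS 2, PBS 9 or RGLS4326 6 (adjusted p up to 0.118) and for *Adrbk1* without PBS 9 (adjusted p = 0.0562), and for both without PBS 2 and PBS 11 together (-0.29, adjusted p = 0.0868, and -0.15, adjusted p = 0.0796). *Arrb2* is also abundant in leukocytes, and all 7 macrophage markers rose in PBS kidneys, from a summed 162 to 347 CPM to 1448 to 4953 CPM. Their part in the *Arrb2* result was not tested. *Evc*, of the ciliary complex that relays Smo activity, decreased by 0.50 in treated against UNT kidneys.

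Genes of Gli protein processing split evenly in PBS kidneys, with 4 of 10 higher and 4 lower, where 43.1% and 39.0% of all tested genes were. *Cul3*, the scaffold of the ligase that degrades Gli proteins through Spop, averaged 166 ± 29.0 CPM in UNT, 106 ± 12.6 in PBS and 127 ± 11.8 in RGLS4326 kidneys. It decreased by 0.65 in PBS (adjusted p = 1.45e-09) and rose by 0.27 with treatment (adjusted p = 0.012). *Sap18*, a co-repressor subunit, decreased by 0.44 in PBS, *Sin3a*, of the same complex, rose by 0.35, and *Gsk3b*, a Gli kinase, was 0.53 higher in treated than in UNT kidneys. With treatment *Csnk1a1* (casein kinase 1 alpha) rose by 0.23 and *Prkaca*, the catalytic subunit of the kinase that primes Gli proteins for processing, decreased by 0.21 (adjusted p = 0.009 and 0.016).

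Of 12 tested target genes, 7 rose and 1 fell in PBS kidneys, a smaller share called than the 82.1% of all tested genes. The gene that fell was *Bmp4*, a growth factor, and 1 of the 7 that rose was *Bcl2*, a survival factor, and neither passed without PBS 2 and PBS 11. *Ccnd2* (cyclin D2) went from 26.4 ± 6.1 to 57.5 ± 9.4 CPM (1.12, adjusted p = 1.4e-11) and *Mycn* from 3.93 to 5.95 CPM (0.60). With treatment 2 of the 12 were called, against 33.8% of all tested genes. *Sfrp1*, a secreted Wnt antagonist, rose by 0.26 (adjusted p = 0.02) and *Snai2*, a transcription factor of mesenchymal cells, by 0.42 (adjusted p = 0.013). Without PBS 2 and PBS 11 neither passed, at log2 fold changes of 0.24 and 0.35 (adjusted p = 0.0575 and 0.0542). Without these 2 mice 6 of the 12 treatment calls remained past the threshold over all lists, those of *Shh*, *Scube1*, *Lrp2*, *Cul3*, *Csnk1a1* and *Prkaca*.

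Of 11 pathway genes called with treatment and with a 3′UTR in the annotation, 3 held a miR-17 seed match. Matches were held by 13 of the 44 pathway genes with a 3′UTR and by 21.9% of all tested genes with one. All 3 called genes with a match (*Cul3*, *Csnk1a1* and *Sfrp1*) were higher after RGLS4326. The other pathway genes with a match were not called and differed in both directions (log2 fold change -0.50 to 0.08). The share called higher among all genes with a match was not computed. The sites of *Cul3* (chr1:80266761-80266767, minus strand) and *Sfrp1* (chr8:23449429-23449435, plus strand; both GRCm38) are shown, with the match in capitals, as examples of the 2 kinds of match. *Cul3* carries the complement of bases 2 to 8 of the seed printed above, and *Sfrp1* that of bases 2 to 7, its last capital being the A that follows.
Cul3: gttgcttattaGCACTTTgcgcattgtgta
Sfrp1: cctgaggactcCACTTTAtagcctaagcct
The *Cul3* site lies 389 bases into a 3′UTR of 2233 bases, and the *Sfrp1* site 2941 bases into one of 3144 bases. A match is a description of letters; no binding was measured.

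The Gli factors are known to bind GACCACCCA. This motif, searched on both strands of the 300 bases around the start sites (250 before, 50 after), was in 0 of the 8 member promoters in the RefSeq table and in 0.244% of 27025 promoters. At so low a share 8 promoters were unlikely to hold an exact match, so its absence says nothing about Gli action on these genes.

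Within groups, *Gli1* was compared with each of the other 8 members from mouse to mouse, on log2(CPM + 1). None of the 24 relations passed after Benjamini-Hochberg adjustment (two-sided permutation tests), and 6 had an unadjusted p below 0.05 for Pearson's r. In UNT mice (n = 12) r was positive for 7 of the 8, and with *Sufu* it was 0.67 (rho 0.69; permutation p = 0.0166 and 0.0154; adjusted p = 0.132 and 0.131), or 0.60 without the 2 mice farthest from the *Gli1* median. In PBS mice (n = 11) r was also positive for 7 of the 8, and with *Gli3* it was 0.56 (rho 0.73; permutation p = 0.0658 and 0.0142; adjusted p = 0.175 and 0.131), or 0.49 without 2 mice. In RGLS4326 mice (n = 11) *Gli1* fell into the separate ranges given above, so r over that group cannot test a relation. Its values and p-values are given as computed and are not read as a relation. The smallest unadjusted p of the 24 was that of *Smo* in this group (r = -0.79, permutation p = 0.00455, adjusted p = 0.109; -0.70 without the 2 mice farthest from the *Gli1* median), and r with *Gli2* was 0.69 (permutation p = 0.0158, adjusted p = 0.132; 0.54 without the 2 mice). With *Dhh* it was -0.61, and 0.085 without the 2 mice, so it rested on them. With values centred within runs, *Dhh* in RGLS4326 mice was the only relation of the 24 to pass (r = -0.88, permutation test, adjusted p = 0.0118). It lies in the same split group, and the permutation did not keep values within runs, so the pass is not read as a relation. Runs held 3 or 4 mice per group, too few for a value each.

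Over all 34 mice, the 5 tested genes ranked most like *Gli1* by Spearman's rho of log2(CPM + 1) were *Sertad4* (0.92), *Mex3b* (0.91), *Wdr52* (0.91), *Rimklb* (0.90) and *Dnaaf3* (0.90), and among the members rho was 0.86 with *Gli3*, 0.86 with *Gli2* and -0.58 with *Sufu*. For *Ihh* they were *Vasn* (0.88), *Ackr3* (0.83), *Tmcc2* (0.81), *Zmynd19* (0.81) and *Ing1* (0.81), and the nearest member was *Smo* (0.71). These 34 points share the group differences, so the values are a description and carry no test.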

How the data were processed

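Polyadenylated kidney RNA was sequenced in 34 mice with stranded libraries. The authors trimmed reads (Trim Galore, FastQC 0.11.2), mapped them with STAR to GRCm38 (mm10) and deposited raw HTSeq 0.6.1 counts per gene symbol, not normalized or pooled; the annotation and strand setting are not given in the sources used here. From these, 15644 of 23509 genes passed filterByExpr and were fitted with edgeR 4.0.16 (glmQLFit, TMM, 3 groups, no covariate; R 4.3.3), adjusted by Benjamini-Hochberg over all genes. SE is the log2 fold change over the root of F, and CPM are TMM-scaled. Reads in no gene (4.94 to 12.0% of reads) stayed out of library sizes. Gene models came from GENCODE (GRCm38), and levels per kb used their merged exons. Replicates are separate mice. The study's text counts fewer PBS mice in this experiment than the labels do, and every library labelled PBS was used. Named were all 9 members, *Pkd2*, the 3 called genes of smallest p in each other pathway list per comparison, the 2 most abundant genes of each marker list described and the 5 genes most like *Gli1* and *Ihh*; *Boc*, *Evc* and *Gsk3b* entered through RGLS4326 against UNT. 1 gene of the lists is counted but not reported here by name. The members and lists were chosen with earlier results of these data known. Alternatives were other scalings and filters, DESeq2 1.42.0, limma-voom 3.58.1, run, replicate and read-share covariates, single runs and each mouse left out. Counting precision is limited by depth, most for *Gli2* and *Dhh*.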

Additional observations from a re-analysis of the deposited data

How the results depend on the processing

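The read-share covariate is the percent of reads in no gene. Of 1296 refits of a single member in a comparison, 1247 kept the direction and the side of the threshold. Most of the 48 alternatives per value left out 1 mouse, in part from the group outside the comparison. Such fits differ little from the main one, so the total says little about the other alternatives. In PBS against UNT 7 members were called whenever any 1 mouse was left out (7 to 7). In RGLS4326 against PBS the count of members called was 0 with the read-share covariate, 0 in run 1 alone, 2 in run 2 alone (*Gli1* and *Hhip*), 0 in run 3 alone and 0 without PBS 2 and PBS 11 (an alternative chosen after seeing the data), and 0 to 1 with 1 mouse left out. At an unadjusted p below 0.05 edgeR gave 0 members with the covariate, 0 in run 1, 0 in run 3, 2 without PBS 2 and PBS 11 and 1 without RGLS4326 6; DESeq2 and limma-voom, run on all mice, each called 1. Fewer mice enter a single run, and over all genes 54, 4065 and 0 were called in runs 1, 2 and 3. Of the 45 other pathway genes, 12 were called with treatment, and 0 with the covariate (9 at an unadjusted p below 0.05), 0 in run 1 alone (11), 6 in run 2 alone, 0 in run 3 alone (4), 6 without PBS 2 and PBS 11 and 9 to 15 with 1 mouse left out. In PBS against UNT they were 36, and 22 in run 3 alone and 33 without PBS 2 and PBS 11. The relations with *Gli1* within groups that passed numbered 1 with values centred within runs (*Dhh* in RGLS4326 mice, r = -0.88, adjusted p = 0.0118 by permutation) and 0 with the other alternatives. That 1 lies in the group whose split in *Gli1* keeps r from testing a relation. Its r without centring was -0.61, and 0.085 without 2 mice.

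Changes of sign occurred only in values that were not called: *Ptch1* in PBS against UNT was 0.039 with the replicate block, 0.14 with the read-share covariate, 0.12 in run 1 alone, 0.24 in run 2 alone and -0.075 to 0.053 with 1 mouse left out, and *Hhip* was -0.18 in run 2 alone. In RGLS4326 against PBS, the covariate gave 0.014 for *Smo*, -0.18 for *Gli1* and -0.071 for *Gli2*, run 1 alone gave -0.16 for *Gli1* and -0.34 for *Gli2*, and *Sufu* was -0.0045 under upper-quartile scaling, -0.00060 with limma-voom, -0.061 in run 3 alone, -0.011 without PBS 2 and PBS 11 and -0.024 to 0.024 with 1 mouse left out. The cause was not tested. Replicate numbers were not treated as pairs in the main fit. Of 33 pairs of mice with the same number, 10 correlated above 0.1 (range -0.415 to 0.454). Mice of different numbers were not compared, so pairing was not tested. With the replicate block 7, 1 and 9 members were called in the 3 comparisons, and 34, 12 and 30 other pathway genes. Depth limits *Gli2* and *Dhh* most.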
